A study of Mus musculus with 8 samples.

Results

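The cytosolic and mitochondrial chaperones were examined in livers of mice without Snd1. The set was defined by gene name and chosen with earlier results of these data known, as 36 genes of the HSP90, HSP70, HSP110, HSP40, HSP60 and small heat shock protein families, the chaperonin TRiC and their co-chaperones. Of the 36 genes, 32 had a probe with their symbol on the array and 28 were counted, out of 8134 genes counted in all. A gene was counted when the deposited detection p-value of a probe was under 0.05 on at least 4 of the 8 arrays.

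Liver RNA was hybridised to Illumina MouseRef-8 v2.0 bead arrays, which carried 25697 probes, with 1 array per animal. The 4 Snd1 KO males lacked exon 1 of Snd1, which encodes a Tudor domain protein that binds RNA, in the germline. The allele was recombined by Cre under the ubiquitous CAG promoter, so that Snd1 was missing from every tissue and not from hepatocytes alone. The 4 WT males were littermates from heterozygous pairs. Both groups came from 129/Sv embryonic stem cells crossed back to C57BL/6N, were 8 to 12 weeks of age and were not fasted, and the left lobe was taken around noon.

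Molecular chaperones hold and fold other proteins. HSP70 proteins bind short hydrophobic stretches of an unfolded chain; HSP40 proteins bring them clients and start their ATP cycle, while HSP110 proteins and BAG proteins exchange their nucleotide. Stip1, also called HOP, hands clients from HSP70 to HSP90, whose own cycle is set by further co-chaperones. TRiC is a ring of different subunits that encloses and folds actin and tubulin, and HSP60 with its lid HSP10 does similar work in the mitochondrial matrix. Many of these genes are transcribed by the heat shock factor Hsf1, which binds inverted repeats of the letters GAA. In liver they handle a large output of newly made protein.

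The start regions of 4 members are shown because these genes had the largest differences described below (Stip1, Chordc1 and Hsph1) or because their repeat is shared by a pair of genes (Hspe1, whose start lies beside that of Hspd1). The sequences are RefSeq's for assembly GRCm38.p6, run 5′ to 3′ on the gene's strand, and cover 100 bases before to 50 bases after the start. Capitals mark every match to GAANNTTC or TTCNNGAA, each of which reads the same on both strands; neighbouring matches overlap by 3 letters when they lie 5 bases apart. The stretches lie at chr19:7039977-7040126 for Stip1 (minus strand), chr9:18292167-18292316 for Chordc1 (plus strand), chr5:149636287-149636436 for Hsph1 (minus strand) and chr1:55088048-55088197 for Hspe1 (plus strand).
Stip1: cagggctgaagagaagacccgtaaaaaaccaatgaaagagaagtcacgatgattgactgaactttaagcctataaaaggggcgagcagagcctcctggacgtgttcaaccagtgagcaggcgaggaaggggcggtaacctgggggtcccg
Chordc1: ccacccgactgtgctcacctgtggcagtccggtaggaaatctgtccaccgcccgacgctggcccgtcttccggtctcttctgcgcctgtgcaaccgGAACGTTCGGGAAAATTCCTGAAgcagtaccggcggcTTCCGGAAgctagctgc
Hsph1: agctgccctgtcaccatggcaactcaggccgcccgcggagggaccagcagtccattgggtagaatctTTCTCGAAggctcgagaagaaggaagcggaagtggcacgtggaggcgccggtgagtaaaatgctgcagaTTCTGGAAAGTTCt
Hspe1: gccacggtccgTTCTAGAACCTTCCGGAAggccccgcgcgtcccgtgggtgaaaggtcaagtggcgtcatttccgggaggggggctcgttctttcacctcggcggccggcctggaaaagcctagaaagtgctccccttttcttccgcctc
Chordc1 held 5 matches, 4 of them in an unbroken overlapping run across its start, and Hsph1 held 3. The run of 3 matches before Hspe1 lay at chr1:55088059-55088076 and was also inside 1 window of Hspd1, which is read in the opposite direction. Another window of Hspd1, from a different start, held 0 matches. Stip1 had no match in its window, which says only that these letters were not there. Over the full windows of 300 bases, 16 of the 29 members with a window had at least 1 match (55.2%), against 15.1% of all 32851 windows and 17% of 27025 genes. The genes were chosen as chaperones, so this share describes the family and was not tested.

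The labels were checked first on Snd1. Its probe was not detected on any KO array and lay between 4.15 and 4.24 on the log2 scale there, against 6.75 to 6.87 on WT arrays. Snd1 was thus at least 4.90-fold lower in KO livers (limma, adjusted p = 3.03e-07). Between arrays, correlations of the normalised values over the 8134 counted genes ran from 0.957 to 0.993. Before normalisation the mean intensity was 215 on KO 1 and 223 on KO 4, 290 on KO 2 and 281 on KO 3, and 262 to 283 on the WT arrays. KO 1 and KO 4 were therefore dimmer than the others, and all values below are log2 intensity after quantile normalisation.

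Most counted chaperone genes had a higher mean in KO than in WT livers, but only Stip1 passed the test. Of the 28 counted members 1 was called higher in KO livers and 0 were called lower at an adjusted p under 0.05 (limma, Benjamini-Hochberg adjustment over all 8134 genes), against 1.18% of all genes called higher and 1.36% called lower. At an unadjusted p under 0.05, 12 members were higher and 0 were lower, against 8.88% and 8.54% of all genes. In 8 members every KO value was above every WT value, and in 0 was every KO value below, against 5.37% and 5.38% of all genes. The median log2 difference of KO minus WT was 0.24 over the members and -0.0014 over all genes tested, with 22 members above 0 and 6 below. Among all genes 96 were called higher and 111 lower, a share of 46.4% higher that was 14.4% when arrays were scaled by their medians. Under that scaling 0 members were called, 0 had KO values all above WT values, and the median of the members was 0.14, beside -0.05 for all genes. Without the dim arrays KO 1 and KO 4 in the fit, 1 member (Stip1, limma, adjusted p = 0.0357) was called and the median of the members was 0.25. The values were still those normalised with KO 1 and KO 4 included, so their effect on normalisation remained. In bulk tissue a smaller share of cells of a type and less RNA per cell cannot be told apart.

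**Figure D1:**
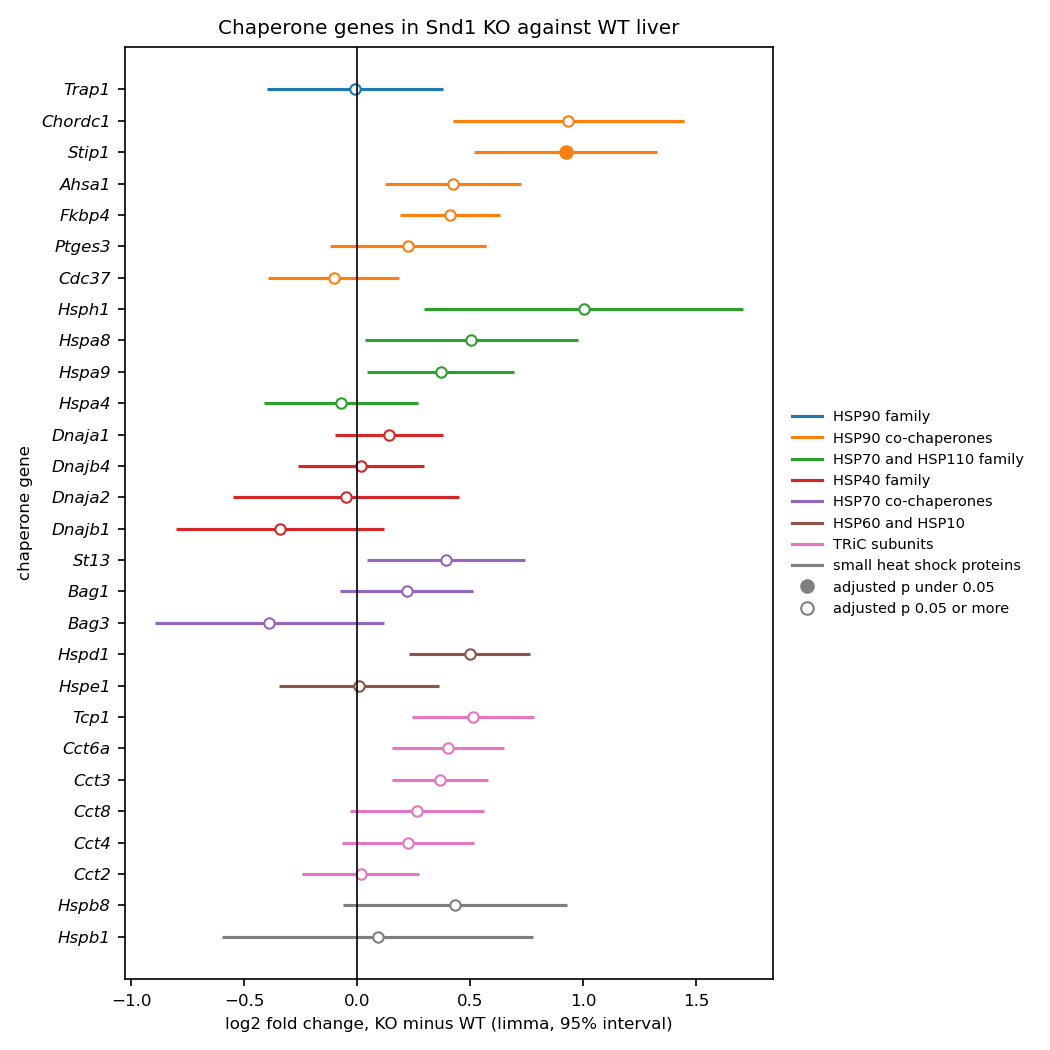
Log2 difference of KO minus WT livers for the 28 counted chaperone genes (horizontal axis), by gene and coloured by chaperone class, with the 95% interval of the limma fit as a line and a filled point where the adjusted p was under 0.05. Stip1 has the only filled point, at 0.92, and 22 of the points lie right of 0.

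The animals did not carry the difference equally. The median deviation of the members from their WT means was 0.08 in KO 1, 0.21 in KO 2, 0.32 in KO 3 and 0.45 in KO 4, against 0.09 in WT 1, -0.03 in WT 2, -0.12 in WT 3 and 0.07 in WT 4. KO 1 was thus within the range of the WT livers by this median. For 6 HSP90 co-chaperones the same median was 0.56, 0.41, 0.40 and 0.49 in KO 1 to KO 4, against 0.16, -0.04, -0.21 and 0.10 in WT 1 to WT 4, so that the groups were apart. For 6 TRiC subunits it was 0.22, 0.16, 0.37 and 0.51 in KO livers, against 0.02, 0.04, -0.07 and -0.0038 in WT livers, again without overlap. For the 4 HSP40 genes it was -0.09, -0.07, 0.15 and 0.06 in KO livers, against -0.14, 0.12, 0.05 and -0.01 in WT livers, and the groups overlapped. Of these HSP40 genes Dnaja1 and Dnajb4 read near background, which limits their median.

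**Figure D2:**
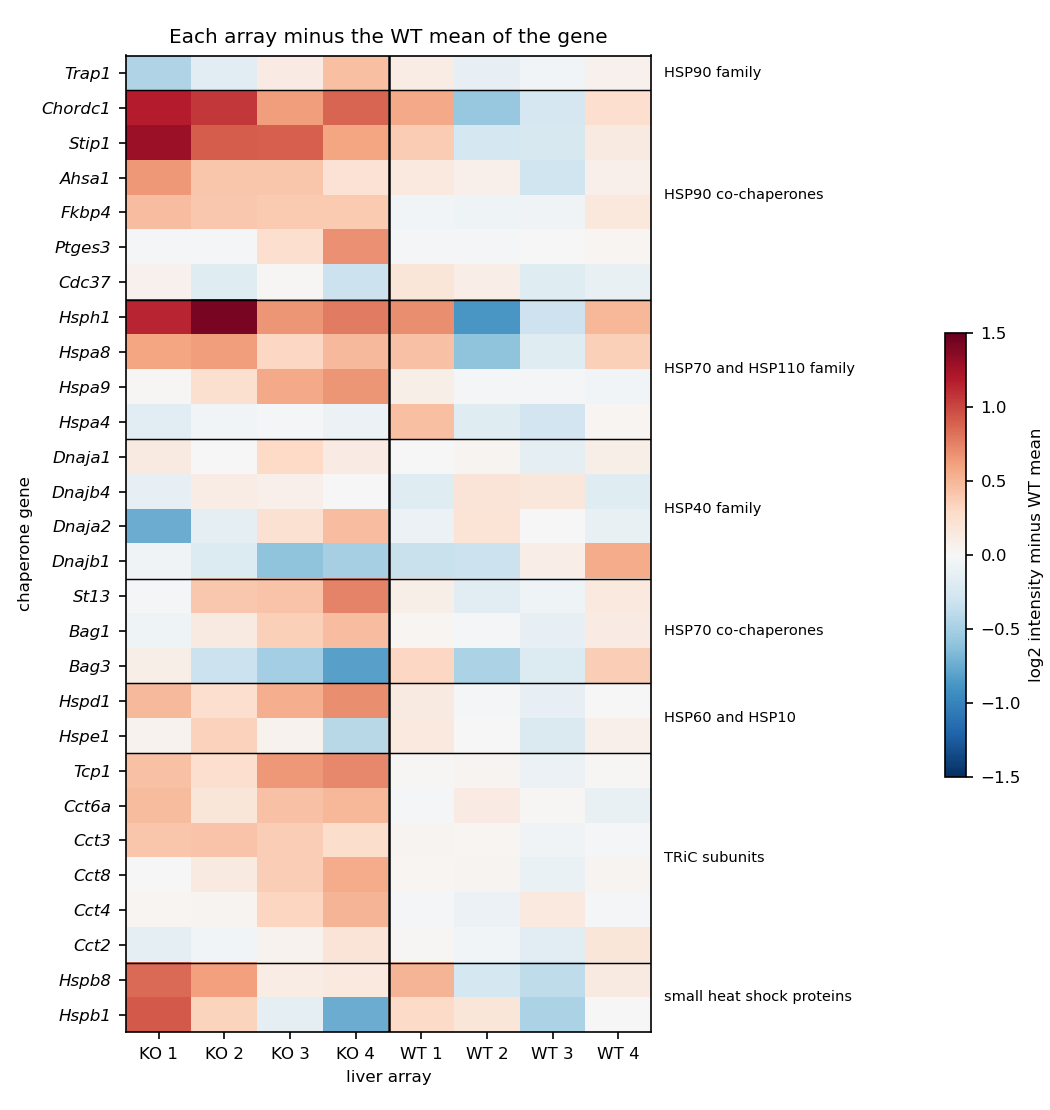
Deviation of each array from the gene's WT mean on the log2 scale (colour, -1.5 to 1.5, red above and blue below) for the 28 counted genes (rows, by class) in KO 1 to KO 4 and WT 1 to WT 4 (columns). Stip1, Chordc1 and Hsph1 are darkest in KO 1 and KO 2, while Tcp1, Hspa9 and St13 are darkest in KO 4.

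The co-chaperones of HSP90 held the called gene and 4 of the 8 members without overlap, and their median log2 difference was 0.42. Stip1, the adaptor between HSP70 and HSP90, read 9.63, 9.25, 9.23 and 8.93 in KO livers, against 8.71, 8.07, 8.10 and 8.47 in WT livers. All 4 KO livers were above all 4 WT livers, with KO 4 the lowest KO value and WT 1 the highest WT value. Stip1 averaged 9.26 ± 0.29 in KO livers and 8.34 ± 0.31 in WT livers (SD, n = 4 each) and rose by 0.92 ± 0.18 (SE) on the log2 scale, or 1.89-fold (limma, adjusted p = 0.0313). The 95% interval of the difference ran from 0.52 to 1.33, and 113 genes of the 8134 had a lower adjusted p. In the deposited values before normalisation Stip1 read 652, 807, 775 and 470 in KO livers, against 536, 342, 350 and 440 in WT livers, so that the dim array KO 4 fell below WT 1. The call was lost when any of WT 2, WT 3, WT 4, KO 2 or KO 3 was left out (adjusted p = 0.102, 0.11, 0.0769, 0.0618 and 0.0954), without the detection filter (0.0771), and with scaling by medians (0.131), where the difference was 0.82.

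Chordc1, a zinc-binding partner of HSP90 that is also called morgana, gave the same picture without passing the test. Its values were 9.64, 9.52, 9.09 and 9.34 in KO livers, against 9.03, 7.89, 8.22 and 8.71 in WT livers. The groups were apart, but KO 3 and WT 1 were only narrowly so, and the WT livers spread widely. The difference was 0.93 ± 0.23 (SE), with an interval of 0.42 to 1.45 (limma, adjusted p = 0.063).

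Fkbp4, the immunophilin FKBP52 that serves steroid receptors held by HSP90, had nearly equal values in the KO livers. It read 10.84, 10.78, 10.77 and 10.76 in KO livers, against 10.34, 10.32, 10.32 and 10.53 in WT livers. KO livers lay close together, and WT 4 stood above the other WT livers but below every KO liver. The difference was 0.41 ± 0.10, interval 0.19 to 0.63 (limma, adjusted p = 0.0599). Although Fkbp4 was not called here, the study's own tests list it as significantly higher in KO livers on both its array and its mRNA sequencing. Ahsa1, which speeds the ATPase of HSP90, read 8.60, 8.36, 8.36 and 8.16 in KO livers, against 8.09, 8.02, 7.65 and 8.02 in WT livers. The groups were apart with KO 4 close to WT 1, and the difference was 0.43, interval 0.13 to 0.73 (adjusted p = 0.137).

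The other HSP90 co-chaperones overlapped between groups. Ptges3, the p23 protein that holds HSP90 closed, read 6.29, 6.27, 6.56 and 6.99 in KO livers, against 6.28, 6.29, 6.31 and 6.34 in WT livers. KO 3 and KO 4 were high and the other KO livers were at the WT level, with a difference of 0.22 (adjusted p = 0.495) that was 0.07 without KO 4. Cdc37, which brings kinases to HSP90, was detected on 5 of 8 arrays and gave -0.10, interval -0.39 to 0.19 (adjusted p = 0.736).

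HSP90 itself was measured only in part. Both probes of Hsp90aa1, the inducible cytosolic form, were below the detection filter, and Hsp90ab1, the constitutive form, was not analysed here because no probe carried its symbol. Trap1, the HSP90 of mitochondria, read 9.57, 9.86, 10.15 and 10.47 in KO livers, against 10.13, 9.90, 9.97 and 10.08 in WT livers. KO livers lay on both sides of the WT range, and the difference was -0.01, interval -0.40 to 0.38 (adjusted p = 0.99).

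**Figure D3:**
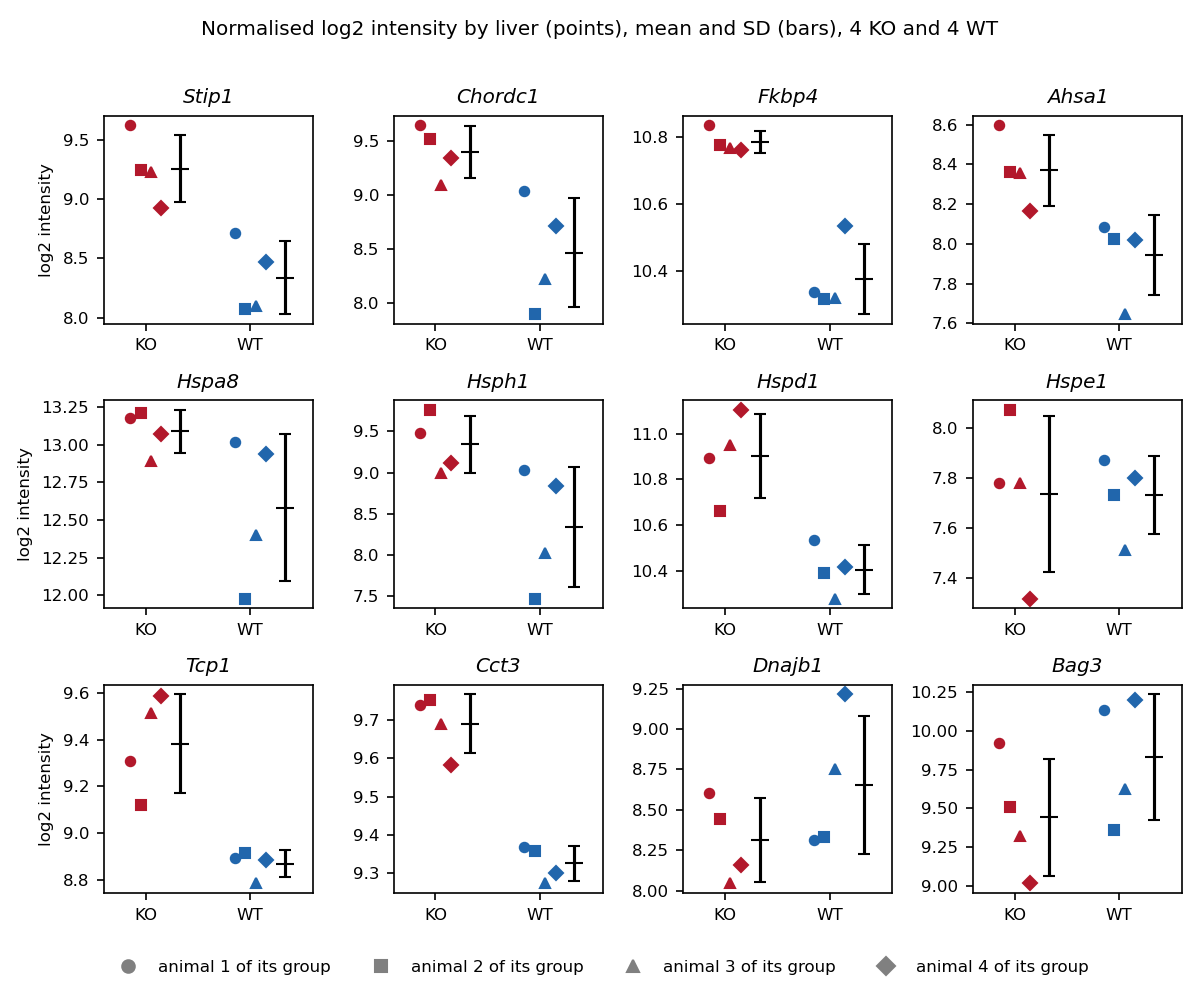
Normalised log2 intensity (vertical axes, which differ between panels) of 12 chaperone genes in 4 KO livers (left, red) and 4 WT livers (right, blue), with 1 point per animal and bars for the mean and SD. Points do not overlap between groups for Stip1, Chordc1, Fkbp4, Ahsa1, Hspd1, Tcp1 and Cct3, and do overlap for Hspa8, Hsph1, Hspe1, Dnajb1 and Bag3.

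In the HSP70 and HSP110 family 3 of the 4 counted genes had a difference above 0 and an unadjusted p under 0.05, but none was called and the groups overlapped in each. Hsph1, the HSP110 protein that resets HSP70, had the largest difference of the 28 counted members. It read 9.49, 9.76, 8.998 and 9.12 in KO livers, against 9.03, 7.46, 8.03 and 8.84 in WT livers. WT 1 stood above KO 3, and WT 2 was far below all others. The difference was 1.00 ± 0.32 (SE), interval 0.30 to 1.71 (limma, adjusted p = 0.137).

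Hspa8, the constitutive HSC70 of the cytosol, read 13.18, 13.21, 12.89 and 13.07 in KO livers, against 13.02, 11.98, 12.40 and 12.93 in WT livers. WT 1 and WT 4 reached the KO range, while WT 2 and WT 3 were lower. The difference was 0.51, interval 0.04 to 0.98 (adjusted p = 0.25), and a further probe of the gene gave 0.64. Without WT 2 the difference of Hspa8 was 0.30, and with scaling by medians it was 0.27. Hspa9, the mortalin of mitochondria, read 11.98, 12.20, 12.53 and 12.63 in KO livers, against 12.06, 11.95, 11.94 and 11.92 in WT livers. Only KO 1 fell into the WT range, with a difference of 0.37, interval 0.04 to 0.70 (adjusted p = 0.226), and 0.41 for a further probe. With scaling by medians Hspa9 gave 0.13. Hspa4, another HSP110 protein, gave -0.07, interval -0.41 to 0.27 (adjusted p = 0.86). Its probe was dim, at 96.9 to 129 before normalisation against array medians of 87.2 to 96.6. A second Hspa4 probe was not detected on any array.

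HSP40 proteins, the partners that start the HSP70 cycle, were not called, and their median difference was -0.02. That median is limited by dim probes. Before normalisation Dnaja1 read 91.4 to 107, Dnajb4 86.8 to 101 and Dnaja2 101 to 168. The array medians were 87.2 to 96.6, and only Dnajb1, at 309 to 691, was well above them. Dnajb1, an inducible HSP40, read 8.61, 8.45, 8.05 and 8.16 in KO livers, against 8.32, 8.34, 8.75 and 9.21 in WT livers. KO 3 and KO 4 were the lowest and WT 4 the highest, and the groups overlapped; the difference was -0.34, interval -0.80 to 0.12 (adjusted p = 0.431), and -0.15 without WT 4. Dnaja1, Dnaja2 and Dnajb4 gave 0.14, -0.05 and 0.02 (adjusted p = 0.537, 0.944 and 0.968). Dnaja2 varied among KO livers, at 5.33, 5.94, 6.31 and 6.54 in KO 1 to KO 4, against 5.97 to 6.28 in WT livers.

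The HSP70 co-chaperones lay on both sides of 0. St13, the HIP protein that steadies HSP70 with its client, read 6.04, 6.45, 6.48 and 6.80 in KO livers, against 6.14, 5.88, 5.98 and 6.20 in WT livers. Only KO 1 was within the WT range, and the difference was 0.39, interval 0.04 to 0.74 (adjusted p = 0.231). Bag3, an inducible BAG protein that directs clients to autophagy, read 9.92, 9.51, 9.32 and 9.02 in KO livers, against 10.14, 9.36, 9.62 and 10.20 in WT livers. KO 3 and KO 4 were below all WT livers, KO 1 and KO 2 were among them, and the difference was -0.39, interval -0.89 to 0.12 (adjusted p = 0.415). Bag1 gave 0.22, interval -0.07 to 0.51 (adjusted p = 0.426).

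Hspd1, the HSP60 of mitochondria, read 10.89, 10.66, 10.95 and 11.10 in KO livers, against 10.54, 10.39, 10.28 and 10.42 in WT livers. All KO livers were above all WT livers, with KO 2 nearest to WT 1. The difference was 0.50 ± 0.12 (SE), interval 0.23 to 0.76 (limma, adjusted p = 0.0601), and a further probe gave 0.55, although there KO 2 (8.1303) was below all WT livers (8.1354 to 8.34). Its lid Hspe1, which shares the printed start region, read 7.78, 8.07, 7.78 and 7.32 in KO livers, against 7.87, 7.73, 7.51 and 7.80 in WT livers. KO 2 was the highest and KO 4 the lowest of all 8, and the difference was 0.01, interval -0.35 to 0.36 (adjusted p = 0.991). Whether the differences of Hspd1 and Hspe1 were unequal was not tested.

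All 6 counted TRiC subunits had a difference above 0, with a median of 0.31; 3 had KO livers all above WT livers, and 0 were called. Tcp1 read 9.31, 9.12, 9.51 and 9.59 in KO livers, against 8.89, 8.91, 8.79 and 8.89 in WT livers. WT livers lay close together and KO 3 and KO 4 were farthest from them, with a difference of 0.51 ± 0.12, interval 0.24 to 0.78 (limma, adjusted p = 0.0582). A second, dimmer probe of Tcp1 gave 0.09, with overlapping groups. Cct3 read 9.74, 9.75, 9.69 and 9.58 in KO livers, against 9.37, 9.36, 9.27 and 9.30 in WT livers. Here both groups were narrow and apart, with a difference of 0.37, interval 0.15 to 0.58 (adjusted p = 0.0766). A further probe gave 0.31, although there KO 3 (8.21) was below WT 2 (8.24).

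Cct6a read 10.46, 10.16, 10.42 and 10.49 in KO livers, against 9.96, 10.10, 9.99 and 9.87 in WT livers. KO 2 was only just above WT 2, and the difference was 0.40, interval 0.15 to 0.65 (adjusted p = 0.0941). Cct8 read 8.92, 9.07, 9.30 and 9.49 in KO livers, against 8.96, 8.97, 8.83 and 8.97 in WT livers, and Cct4 read 9.54, 9.55, 9.83 and 10.02 in KO livers, against 9.48, 9.43, 9.65 and 9.48 in WT livers. In both genes KO 3 and KO 4 were above all WT livers and KO 1 was not. Their differences were 0.26 for Cct8 and 0.22 for Cct4 (adjusted p = 0.342 and 0.41), and without KO 4 they were 0.17 for Cct8 and 0.13 for Cct4. Cct2, detected on 6 arrays, gave 0.02, interval -0.24 to 0.27 (adjusted p = 0.966). Cct5 and Cct7 were below the filter.

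The small heat shock proteins, which hold unfolded chains without ATP, varied mainly within groups. Hspb1 read 7.90, 7.30, 6.83 and 6.22 in KO livers, against 7.26, 7.16, 6.50 and 6.97 in WT livers. KO 1 was the highest and KO 4 the lowest of all, and the difference was 0.09, interval -0.60 to 0.78 (adjusted p = 0.92). Hspb8, which works with Bag3, read 9.80, 9.55, 9.06 and 9.09 in KO livers, against 9.45, 8.67, 8.56 and 9.08 in WT livers. KO 1 and KO 2 were above all WT livers, and the difference was 0.43, interval -0.06 to 0.93 (adjusted p = 0.353). Hspa4l was below the filter, and Hspa1b, Stub1 and Hsf1 had no probe with their symbol and were not analysed here.

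Among other genes of the folding machinery none was called. Of 91 further HSP70, HSP40, co-chaperone, small heat shock protein, prefoldin and mitochondrial partner genes, 64 were counted. Of these 0 were called in either direction, against 1.18% of all genes called higher and 1.36% lower, so 0 calls is near these shares. By their mean difference 32 were above and 32 below 0 (median -0.0032). At an unadjusted p under 0.05, 10 of the 64 were higher and 5 lower, against 8.88% and 8.54% of all genes. Among the higher ones Hspa12b and Clpb, named for their detection, were detected on all 4 KO arrays but on 1 WT array. Both thus passed the detection filter through the KO arrays. Dnajb2, an HSP40 that binds ubiquitin, read 8.91, 9.22, 8.92 and 9.16 in KO livers, against 8.66, 8.48, 8.33 and 8.65 in WT livers; the groups were apart and the difference was 0.52 (adjusted p = 0.056). Ppid, the HSP90-bound cyclophilin, gave 0.37 (adjusted p = 0.101), also without overlap. With its own tests the study lists Dnajb2 as significantly higher in KO livers on both its array and its mRNA sequencing. Atf5, a transcription factor of the mitochondrial stress response, read 9.78, 9.88, 9.52 and 9.33 in KO livers, against 10.04, 10.17, 10.20 and 10.28 in WT livers. All KO livers were below all WT livers for Atf5, with a difference of -0.55 (adjusted p = 0.0644). Of 31 counted proteasome subunits 0 were called, and their median was -0.05.

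Of 16 listed actin and tubulin genes, whose proteins TRiC folds, 11 were counted, with 10 above 0 and 1 below, and the 2 called genes were alpha tubulins. Tuba1b, an alpha tubulin, read 11.42, 11.56, 11.25 and 11.41 in KO livers, against 10.95, 10.83, 10.92 and 11.05 in WT livers. The groups were apart, and Tuba1b rose by 0.47 ± 0.11 (SE) on the log2 scale (limma, adjusted p = 0.0473). Tuba8, another alpha tubulin, read 4.85, 6.28, 5.68 and 5.72 in KO livers, against 4.36, 4.44, 4.32 and 4.69 in WT livers, and was detected on all 4 KO arrays but on 1 WT array. It thus passed the detection filter through the KO arrays, and with most WT values near background its size of difference is poorly measured: the fit gave 1.18 (adjusted p = 0.0363), against 0.40 without background correction (adjusted p = 0.0942). The KO 1 value was near the WT values. Actb, the cytoplasmic beta actin, was singled out after its values were seen and read 11.96, 12.29, 11.82 and 12.05 in KO livers, against 12.24, 12.46, 12.36 and 12.25 in WT livers. For Actb the groups overlapped in KO 2, and the difference was -0.30, interval -0.57 to -0.02 (adjusted p = 0.246). Both tubulin calls were lost when any array other than KO 1 was left out, and over the alternatives the adjusted p reached 0.63 for Tuba1b and 0.126 for Tuba8. Near-identical tubulin transcripts can bind each other's probes, and this was not tested.

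Genes linked to temperature and handling of tissue were listed because heat shock genes respond to temperature. Cirbp, a cold-inducible RNA-binding protein, read 5.12, 5.46, 5.83 and 5.22 in KO livers, against 6.02, 6.70, 6.79 and 6.39 in WT livers. All KO livers were below all WT livers, and Cirbp fell by 1.07 ± 0.20 (SE) on the log2 scale, or 2.10-fold (limma, adjusted p = 0.0248). The call was lost when any of WT 2, WT 3, WT 4, KO 2 or KO 4 was left out, without KO 1 and KO 4 together, without the detection filter and with scaling by medians, with an adjusted p of at most 0.0876. Without background correction the difference was -0.49 and was still called (adjusted p = 0.0473). Within the WT livers WT 1 was the highest for Stip1, Chordc1 and Hsph1 and the lowest for Cirbp. These 3 genes had the largest differences of the members. The inducible members Dnajb1 (-0.34) and Bag3 (-0.39) were lower in KO livers on average, and WT 1 was the lowest WT liver for Dnajb1 (8.315). Among KO livers Cirbp was highest in KO 3 (5.83), where Chordc1 and Hsph1 were lowest, but Stip1 was lowest in KO 4 (8.93). Rbm3, the other cold-inducible gene listed, overlapped between groups and gave -0.05, interval -0.46 to 0.37 (adjusted p = 0.937). Egr1, an immediate early gene, read 7.19, 7.44, 7.60 and 8.06 in KO livers, against 9.56, 10.67, 7.24 and 9.83 in WT livers, where WT 3 was at the KO level (-1.75, adjusted p = 0.149). The part of temperature or handling in the chaperone values was not tested.

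**Figure D4:**
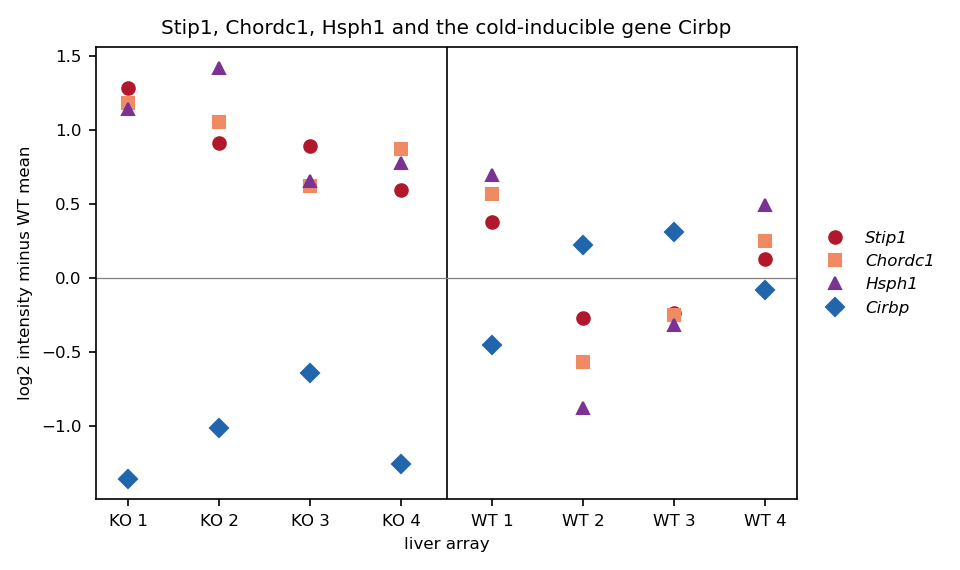
Deviation from the WT mean on the log2 scale (vertical axis) of Stip1, Chordc1, Hsph1 and Cirbp in each KO liver (left) and WT liver (right). In every KO liver the 3 chaperone genes lie above 0 and Cirbp below, and in WT 1, where the 3 genes are above 0, Cirbp is at its lowest WT value. The 3 genes had the largest differences of the members, and Dnajb1 and Bag3, not shown, were lower in KO livers on average.

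No cell type marker was called in any of the 9 lists examined, against 1.18% of all genes called higher and 1.36% called lower. The lists are short, so 0 calls is close to these shares and says little about the markers. The summed intensity of the 8 counted hepatocyte markers of 10 listed was 77458 to 88506 in KO livers and 72444 to 80567 in WT livers, with 0 called and with Fgb and Tat not detected on any array. This sum follows the brightest markers, such as Ahsg at 14.0 to 14.2 on the log2 scale. The Alb probe read only 4.45 to 4.94, near background, and was detected on 7 of the 8 arrays. The 4 counted neutrophil markers of 10 listed all had a difference below 0 (median -0.83) and summed to 81.4 to 191 in KO livers and 154 to 338 in WT livers, with 0 called and with Ngp and Mpo not detected on any array. Of the 5 counted Kupffer cell and macrophage markers of 9 listed all 5 had a difference below 0 (sum 1166 to 1958 in KO livers and 1356 to 2158 in WT livers), with 0 called and with Cd5l not detected on any array. The 6 counted stellate cell and fibroblast markers of 8 listed all had a difference above 0 (median 0.22, sum 2685 to 3963 in KO livers and 2589 to 2813 in WT livers), with 0 called and with Col1a2 not detected on any array. Among them Reln, also singled out after its values were seen, gave 0.41 (adjusted p = 0.149), with KO livers all above WT livers. Of 7 endothelial cell markers 4 were above 0 and 3 below, with 0 called (sum 2416 to 2806 in KO livers and 2318 to 2435 in WT livers). Lyve1, a marker of sinusoidal endothelium chosen in the same way, gave 0.96 (adjusted p = 0.104), with overlapping groups. Stab2 of the same list went the other way, at -0.24 (limma, adjusted p = 0.224), with all KO livers below all WT livers. The part of cell composition in the chaperone values was not tested.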

How the data were processed

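Livers of 4 Snd1 KO and 4 WT mice, described as biological quadruplicates, gave 1 array each, and groups and replicate numbers followed the sample titles. The authors deposited probe intensity without normalisation (75.2 to 22138, linear scale) with a detection p-value per probe and array, and processed intensity, which served as an alternative. Slides, scan dates, scanner and normalisation software: not given in the sources used here. Normexp background correction from the detection p-values (offset 16), quantile normalisation and log2 were done with limma 3.58.1 (R 4.3.3). The offset compresses differences of dim probes, and equal distributions hide a change of total RNA. Of 25697 probes, 23978 had 1 symbol in the platform annotation and 1719 had none. Probes with a detection p-value under 0.05 on 4 or more arrays were kept (10945), and the brightest kept probe stood for each of 8134 genes. Detection in a single group was enough to pass. Groups were compared with lmFit and eBayes, 2-sided, with Benjamini-Hochberg adjustment over all genes; the procedure was tested on simulated data. The number of arrays limits the precision. Every member was named, with Snd1, and of each further list the called genes or up to 3 with the lowest p. Members and lists were chosen with earlier results of these data known. Promoter windows (250 bases before to 50 after the start) were RefSeq's, assembly GRCm38.p6. Alternatives changed the background correction, normalisation, filter, probe choice, array weights, replicate block and arrays included. Arrays were left out after normalisation and filtering, so a left-out array still shaped both steps.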

Additional observations from a re-analysis of the deposited data

Results flagged for a closer look

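Of 104 pairs of a gene and a group of 4 livers, 7 held a liver far from the other 3 by Dixon's test, where chance gives about 1 in 20. Among members, all in WT livers, Fkbp4 read 10.533 in WT 4, against 10.315 to 10.336 in the others. Ahsa1 read 7.646 in WT 3, against 8.0208 to 8.0875 in the others. Hspa9 read 12.061 in WT 1, against 11.923 to 11.946. Cct8 read 8.8286 in WT 3, against 8.9627 to 8.9717. Outside the members, Cryab read 4.8304 in WT 2 (others 5.1017 to 5.1427), Psmd5 read 5.8068 in WT 1 (others 6.0125 to 6.0284), and Tuba1a read 6.4556 in KO 1 (other KO livers 6.8755 to 6.9273).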

How the results depend on the processing

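The count of members called, 1 (Stip1), was the least stable value. Raising the offset to 50 gave 5, omitting background correction gave 6 and the processed values of the authors gave 6, all higher in KO livers, because Fkbp4, Hspd1, Cct3, Tcp1 and, except with the offset of 50, Cct6a joined Stip1. It was 0 with median scaling, 2 without a detection filter, and 15 with array weights (14 higher and 1 lower). The count of genes called over all genes was 97 with median scaling, 96 without a detection filter and 2190 with array weights, against 207. Further chaperone genes called, 0 in the main setting, numbered 2 with an offset of 50, 3 without background correction, 3 with the authors' values and 17 with array weights. With median scaling 4 members had an unadjusted p under 0.05 and higher KO values, and 0 members had groups without overlap. Leaving out 1 array at a time gave 0 to 4 members called, 41 to 522 genes called and 0 to 3 further chaperone genes called, with the upper ends without KO 1 and 0 members called without WT 2, WT 3, WT 4 or KO 3. The median of the members, 0.24, stayed between 0.14 and 0.37 over the alternatives. The cause of these changes was not tested.

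Directions changed only in members near 0. Array weights gave 0.12 for Trap1, 0.0064 for Cdc37, 0.044 for Hspa4, 0.17 for Dnaja2 and -0.047 for Hspb1, median scaling gave -0.065 for Hspe1, and leaving out KO 1 and KO 4 together gave 0.045 for Dnaja2. With 1 array left out the ranges were -0.16 to 0.14 for Trap1, -0.17 to 0.077 for Hspa4, -0.22 to 0.18 for Dnaja2, -0.044 to 0.081 for Dnajb4, -0.11 to 0.15 for Hspe1, -0.042 to 0.074 for Cct2 and -0.19 to 0.37 for Hspb1. Values also moved by over 1.5 times in members that kept their direction. Leaving out KO 4 gave 0.14 for Bag1, -0.25 for Bag3 and -0.03 for Cdc37, and leaving out KO 3 gave 0.089 for Dnaja1. Median scaling gave 0.27 for Fkbp4, 0.24 for Cct3, 0.25 for Cct6a, 0.15 for Cct8, 0.084 for Cct4 and 0.032 for Bag1. Omitting background correction gave 0.21 for St13 and 0.13 for Ptges3, and averaging the probes of a gene gave 0.30 for Tcp1. Stip1 was called in 12 of 19 alternatives and Cirbp in 11 of 19. Tuba8 was called in 6 of 18 and Tuba1b in 9 of 19. With the replicate number as a block 92 genes were called, Stip1 was still called (adjusted p = 0.0399) and no other member was. Deviations of same-numbered KO and WT livers correlated at 0.0889, -0.0877, 0.117 and -0.0102, so the numbers were not taken to pair animals, and not every KO liver correlated best with its own number. Signal near background limits Cdc37, Cct2, Dnaja1 and Dnajb4, which were not detected on every array. Hspa4 was detected on every array but was also dim.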
